A study of Mus musculus with 3 samples.

Results

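The genes Foxp3 and Ikzf2 were examined for binding of BACH2 and JunD in cultured mouse regulatory T cells. For each gene, every peak with at least 1 bp inside a fixed mm9 window was taken. The Foxp3 window ran over 100 kb of chromosome X, from 7110000 to 7210000, and the Ikzf2 window over 270 kb of chromosome 1, from 69520000 to 69790000. The windows held 9 of the 14370 peaks in the lists, made up of 5 of the 9133 BACH2 peaks and 4 of the 5237 JunD peaks.

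The series mapped both factors by chromatin immunoprecipitation and sequencing (ChIP-seq) in induced regulatory T cells (iTreg cells). Single libraries of BACH2-bound DNA, JunD-bound DNA and input DNA are labelled, 1 for each kind, all from wild-type C57BL/6 mice 8 to 12 weeks old. CD4+ T cells from the spleen were sorted, then stimulated for 4 days on plates bearing antibodies to CD3ε and CD28 in medium with TGF-β. For JunD, 2 antibody catalogue numbers are labelled, without a statement of which was used. The input's signal was not used here, and with 1 library per factor no difference can be set against replicate error. The lists hold peaks and no expression, so the cell type could not be checked against its markers, and no read numbers are given, which leaves the depth unknown.

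Foxp3 encodes the forkhead transcription factor that defines the regulatory T cell lineage, and its loss in mice causes fatal autoimmunity. In iTreg cells its transcription is switched on by TGF-β together with stimulation of the T cell receptor. Ikzf2 encodes Helios, a zinc finger protein of the Ikaros family that is abundant in regulatory T cells of thymic origin and contributes to their stability. BACH2 is a basic leucine zipper repressor that restrains effector programmes in T cells and favours the formation of regulatory T cells. JunD is a subunit of the activator protein 1 (AP-1) complex, and related DNA elements are recognised by dimers that contain BACH2 or JunD.

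In the order of a GRCm38 gene table, used for names only, the protein-coding neighbours of Foxp3 are Ppp1r3f and Ccdc22, and the long noncoding RNA Flicr lies next to it. The protein-coding neighbours of Ikzf2 are Erbb4 and Spag16. No mm9 gene model or sequence was used here, so no peak below is assigned to a promoter, an intron or a gene, and the bases under the peaks are not shown. Peaks are given by their mm9 positions, counted from 1.

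The RefSeq promoter table holds 2 start sites of Foxp3, each with 250 bases before and 50 after the start, in the build GRCm38.p6. The stretch before the first start site (chrX:7579426-7579675, plus strand of GRCm38.p6) is shown as an example of the promoter stretches of Foxp3 in that table. It cannot be set beside the mm9 peaks. Capitals mark the letters TATAAA, found once, where TATA-binding protein can attach. The stretch before the second start site, not shown, holds 0 matches to these letters.

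Foxp3 promoter: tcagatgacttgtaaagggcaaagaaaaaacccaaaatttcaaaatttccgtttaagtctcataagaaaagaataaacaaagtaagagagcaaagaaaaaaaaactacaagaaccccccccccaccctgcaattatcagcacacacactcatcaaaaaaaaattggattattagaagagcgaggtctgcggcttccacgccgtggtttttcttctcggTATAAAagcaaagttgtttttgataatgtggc

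Neither Foxp3 start site had the AP-1 letters TGANTCA, which read the same on both strands, anywhere in its 300 bases. They occur in 7.81% of the 32851 promoters of that table. The 9-letter form TGANTCAGC, which contains TGANTCA, was also not found on either strand and occurs in 1.19% of promoters. That table holds no promoter of Ikzf2, so neither form could be searched for that gene. These letters were searched in short promoter windows of another build, which says nothing of the peaks described next.

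At Foxp3, both factors had peaks within a short stretch, and all 4 lay within 7.35 kb (7142543 to 7149893). The main site was shared. Its BACH2 peak (7147977 to 7148207, 231 bp) had an enrichment of 5.39-fold over background, as the authors' peak caller reckoned it, and a −log10 q of 10.3. Here q is the p-value corrected for multiple testing. This BACH2 peak ranked 5112 of 9133 by −log10 q, close to the middle of the list, whose medians are 5.75-fold and 11.8. The JunD peak over the same site (7147796 to 7148602, 807 bp) had a score of 159.85, against a list median of 81.6. It ranked 835 of 5237, in the strongest quintile of the list. At this site JunD thus stood high in its own list and BACH2 near the middle of its own. The lists differ in length and in the measure ranked, so these ranks do not show which factor was bound more strongly.

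The BACH2 peak at the shared Foxp3 site lay wholly inside the JunD peak and covered 28.6% of it. Its summit, the position of highest signal, was 146 bp from the centre of the JunD peak. Among the 2677 overlapping pairs of the lists the median distance was 55 bp, and 79.6% of pairs were as close as this one or closer. The pair therefore overlapped with its points further apart than in most shared regions. The JunD list gives no summits, and this JunD peak was 807 bp wide against a list median of 553 bp. The distance therefore does not give the offset between the bound positions of the 2 factors.

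The other peaks of the Foxp3 window were weak and not shared. A second BACH2 peak (7142543 to 7142856, 314 bp) had a 3.12-fold enrichment and a −log10 q of 4.41, and ranked 8391 of 9133. It lay 5.12 kb below the shared BACH2 peak and 4.94 kb from the nearest JunD peak. A second JunD peak (7149507 to 7149893, 387 bp) had a score of 56.28, near the lowest score in the list, 50, and ranked 4505 of 5237. It lay 0.904 kb above the shared JunD peak and 1.30 kb from the shared BACH2 peak. Gaps of that size or smaller to a BACH2 peak occurred for 8.10% of JunD peaks that BACH2 did not overlap.

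No peak of either factor was listed in the rest of the Foxp3 window. This leaves 32.5 kb at its lower end and 60.1 kb at its upper end, which are parts of longer empty stretches of 118.4 kb (7024146 to 7142542) and 98.4 kb (7149894 to 7248300). The first peaks beyond the lower edge were a BACH2 peak 85.9 kb away (4.68-fold, rank 5865) and a JunD peak 109.6 kb away (score 91.22, rank 2228). Beyond the upper edge came a BACH2 peak at 40.5 kb (3.76-fold, rank 8882) and a JunD peak at 38.3 kb (score 56.26, rank 4508). None of these 4 was overlapped by the other factor. A site below a caller's threshold is not listed, so an empty stretch does not show that a factor was not bound.

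At Ikzf2, BACH2 had 3 peaks and JunD 2, spread over 193.8 kb (69545520 to 69739358). The shared site held the strongest JunD peak of both windows (69590659 to 69591279, 621 bp), with a score of 266.82 and rank 297 of 5237. The BACH2 peak inside it (69590834 to 69591049, 216 bp) had a 3.65-fold enrichment and a −log10 q of 8.79, and ranked 5793 of 9133. The JunD peak was thus among the strongest 5.67% of its list, while the BACH2 peak stood 63.4% of the way down its own. As at Foxp3, these places in unlike lists do not compare the strength of binding of the factors. The BACH2 summit lay 19 bp from the JunD centre, and 20.5% of all overlapping pairs were as close or closer. The BACH2 peak covered 34.8% of the JunD peak and again lay wholly inside it, as in 78.8% of all pairs.

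The strongest BACH2 peak of both windows was a different one, and JunD did not overlap it. It lay on chromosome 1 from 69735387 to 69735911 (525 bp), with a 9.52-fold enrichment, a −log10 q of 31.5 and rank 1668 of 9133, in the strongest quintile. Of the BACH2 peaks ranked at least as high, 43.8% were overlapped by JunD. The nearest JunD peak (69738445 to 69739358, 914 bp) began 2.53 kb above it, with a score of 107.02 and rank 1697 of 5237. This JunD peak was in turn overlapped by no BACH2 peak. A gap this small or smaller was found for 10.3% of the BACH2 peaks that JunD did not overlap and for 13.9% of the JunD peaks that BACH2 did not overlap. The pair were thus close neighbours that the lists keep apart.

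The remaining BACH2 peak of the Ikzf2 window (69545520 to 69546067, 548 bp) had a 4.41-fold enrichment and a −log10 q of 6.22, and ranked 7264 of 9133. Its nearest JunD peak was the shared one, 44.6 kb away, close to the median gap of 46.7 kb for BACH2 peaks that JunD did not overlap. Between the shared site and the strongest BACH2 peak lay 144.1 kb with no peak of either list (69591280 to 69735386). This is the longest empty stretch of the Ikzf2 window.

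**Figure D1:**
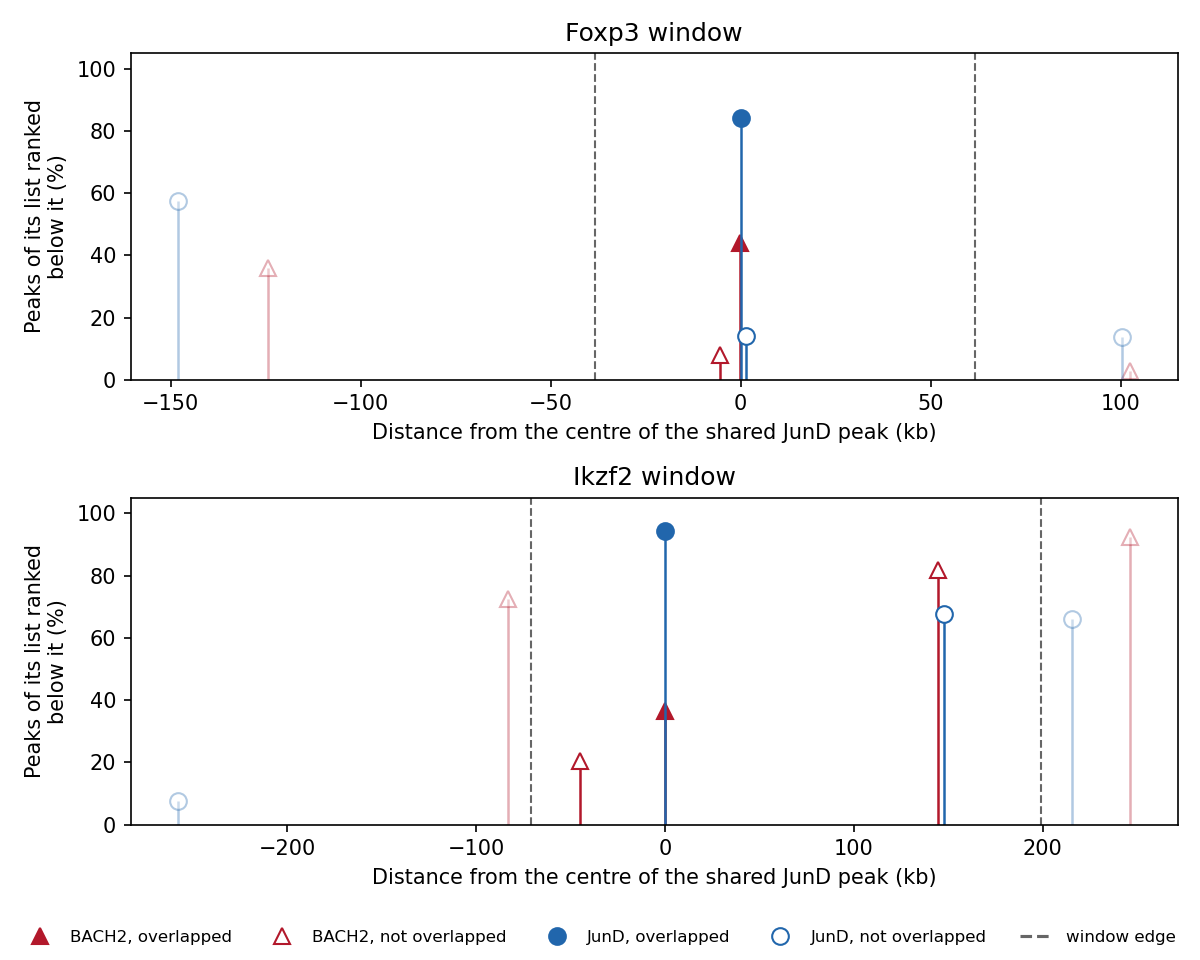
Peaks in and beside the Foxp3 window (upper panel) and the Ikzf2 window (lower panel), by distance in kb from the centre of the shared JunD peak. The height is the percentage of peaks of the same list that rank below the peak (BACH2 triangles by −log10 q, JunD circles by score), filled symbols are peaks overlapped by the other factor, dashed lines are window edges and pale symbols are the nearest peaks outside. In both windows the filled circle stands above the filled triangle, and at Ikzf2 the tallest triangle inside the window, rank 1668 of 9133, is open. Heights of triangles and circles come from unlike lists and do not compare the strength of binding of the factors.

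The nearest BACH2 peaks outside the Ikzf2 window stood in the strongest 7.53% (upper side) and 27.6% (lower side) of their list. On the upper side, 46.9 kb away, a BACH2 peak (69836885 to 69837273) had an 8.87-fold enrichment, a −log10 q of 60.1 and rank 688. By −log10 q it stood above every BACH2 peak inside the window, but by fold it stood below the inside peak of 9.52-fold. On the lower side, 11.9 kb away, another (69507859 to 69508093) had an 8.35-fold enrichment, a −log10 q of 21.5 and rank 2524. The nearest JunD peaks outside were 15.8 kb above (69805835 to 69806599, score 104.66, rank 1773) and 186.5 kb below (score 53.29, rank 4842). None of the 4 was overlapped by the other factor. Whether any of these peaks belongs to Ikzf2 or to a neighbour cannot be told from the lists.

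Over both windows, JunD overlapped 2 of 5 BACH2 peaks, against 29.3% of the whole BACH2 list, and BACH2 overlapped 2 of 4 JunD peaks, against 48.8% of the whole JunD list. With so few peaks these shares lie near the background and are no result about the windows. Each window held exactly 1 shared site. In each, the shared JunD peak was the stronger JunD peak of the window. Strong JunD peaks were also shared more often over the whole list. BACH2 overlapped 67.8% of JunD peaks in the strongest quintile and 33.2% in the weakest. The shared BACH2 peak was the stronger of the pair at Foxp3 and the middle one of 3 at Ikzf2 by −log10 q. By fold, the shared BACH2 peak at Ikzf2 was the weakest of its window.

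The shared BACH2 peak at Ikzf2 had a high −log10 q for its fold. It had a higher −log10 q than 90.8% of the 500 other BACH2 peaks whose fold was within 5% of its own, which had a median of 5.55. The other 4 BACH2 peaks of the windows exceeded between 33.9% and 58.3% of the peaks of like fold. Ranked by fold, the shared peak at Ikzf2 was 8091 of 9133, against 5793 by −log10 q.

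**Figure D2:**
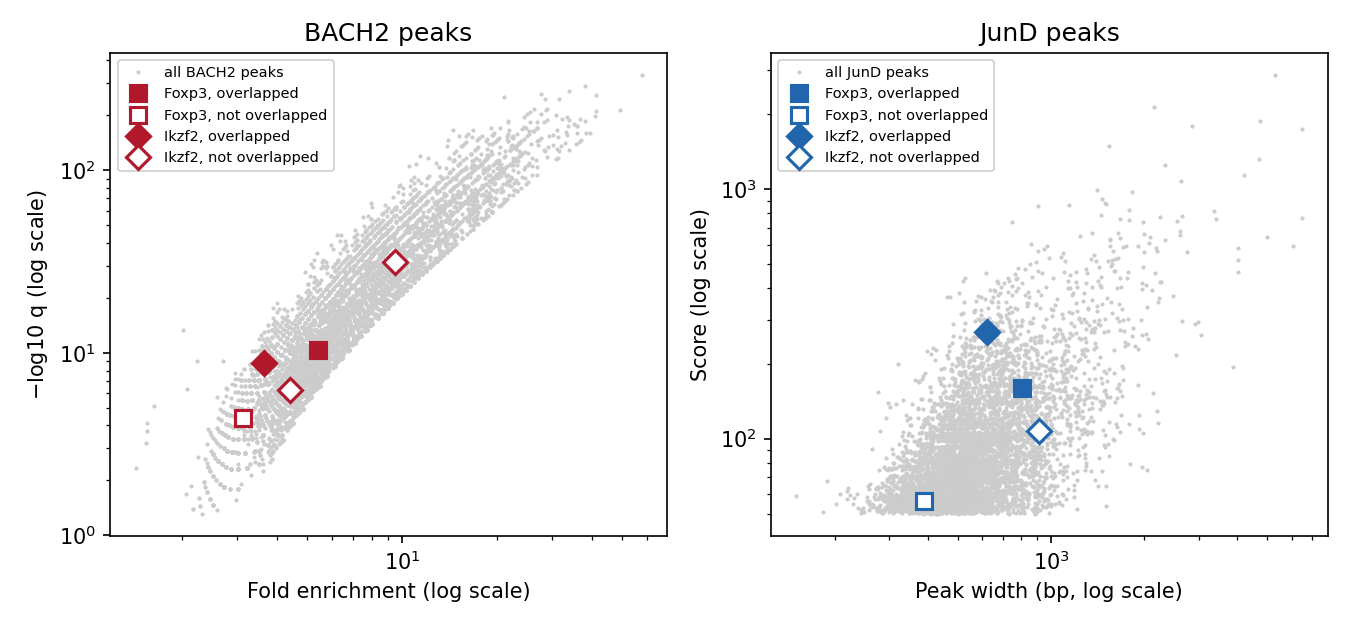
Strength of the member peaks in their lists, with BACH2 fold enrichment against −log10 q on the left and JunD peak width in bp against score on the right, all axes on log scales. Grey points are all 9133 BACH2 and 5237 JunD peaks, squares are Foxp3, diamonds are Ikzf2 and filled symbols are overlapped by the other factor. The filled BACH2 diamond lies left of the open ones and high for its fold of 3.65, while both filled JunD symbols, at scores of 266.82 and 159.85, stand above the open ones.

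The BACH2 peaks at both shared sites ranked lower than the strongest BACH2 peak in most shared JunD peaks that scored as high or higher. BACH2 overlapped 233 of the 297 JunD peaks that ranked as high as the shared Ikzf2 peak or higher. In 26.6% of those 233, the strongest BACH2 peak stood as low in its list as at Ikzf2 or lower, and the BACH2 rank was 5793 at Ikzf2, against a median of 3126 over the 233. For the shared Foxp3 peak, BACH2 overlapped 583 of the 835 JunD peaks ranked as high or higher, and 27.8% of these met a BACH2 peak ranked as low or lower. The BACH2 rank was 5112 at Foxp3, against a median of 2766 over the 583, and the median over all shared JunD peaks was 3326.

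The number of peaks in each window was set beside tiles of equal length laid along the same chromosome, with the window as a tile. On chromosome X, 1.32% of 1587 tiles held 2 or more BACH2 peaks, 0.567% held 2 or more JunD peaks, and 1.58% held 1 or more BACH2 peaks overlapped by JunD. Most tiles of this chromosome were empty, with no BACH2 peak in 93.4% and no JunD peak in 97.2%. Tiles of this length on all chromosomes held 2 or more BACH2 peaks in 8.07% and 2 or more JunD peaks in 4.30%. The Foxp3 window was therefore among the more occupied tiles of a sparsely occupied chromosome.

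On chromosome 1, 13.5% of 705 tiles held 3 or more BACH2 peaks, 13.3% held 2 or more JunD peaks, and 15.7% held 1 or more BACH2 peaks overlapped by JunD. The fullest tile held 19 BACH2 peaks and the fullest for JunD held 18, so the Ikzf2 window was far from the densest. Over all chromosomes the shares were 13.4% for BACH2 and 12.4% for JunD. Tiles include stretches without genes, and the windows were chosen for their genes, so these shares describe the chromosomes and are no test of the windows.

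**Figure D3:**
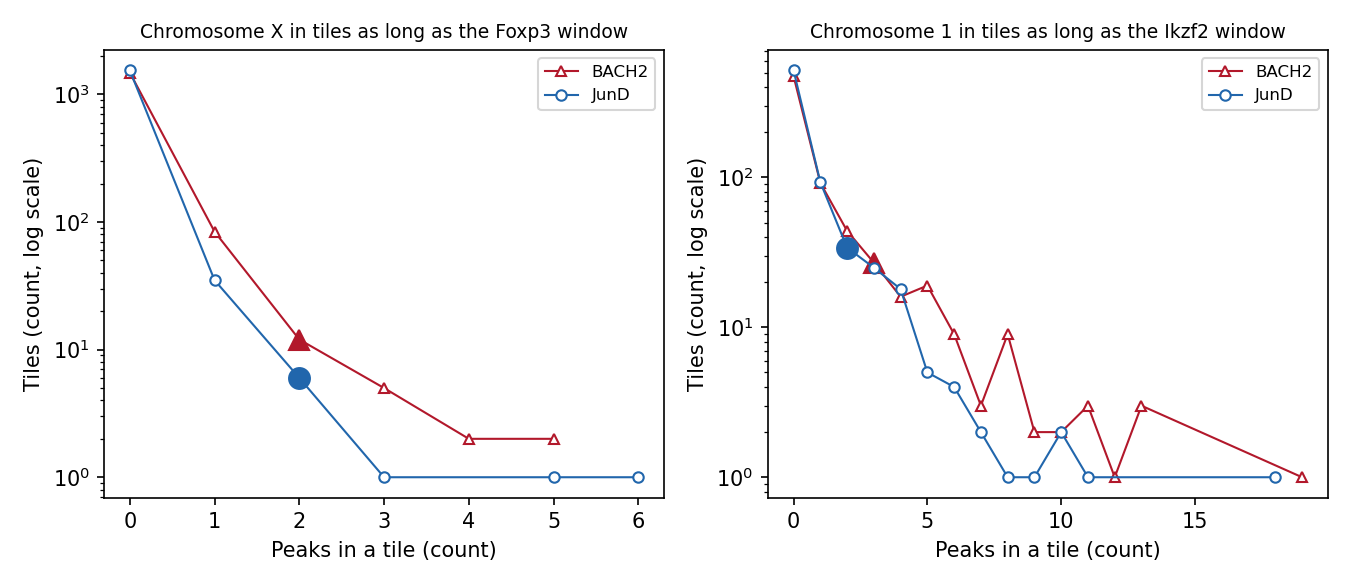
Number of tiles (log scale) by the number of BACH2 (triangles) or JunD (circles) peaks in the tile, for chromosome X in tiles as long as the Foxp3 window and chromosome 1 in tiles as long as the Ikzf2 window. Numbers of peaks that no tile held are left out, and large filled symbols mark the windows' own counts, which are 2 BACH2 and 2 JunD peaks at Foxp3 and 3 BACH2 and 2 JunD peaks at Ikzf2.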

How the data were processed

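The submitters' processing notes name Bowtie 0.12.9 and the build mm9 (NCBIM37). The control library used for peak calling, the caller's version and the pooling of reads were not given in the sources used. The BACH2 peaks the authors deposited follow the narrowPeak layout, with a summit, a fold enrichment (a ratio to background) and both p and q on the −log10 scale. The integer score also deposited for BACH2 repeats the −log10 q (10 times its value, truncated, in 100% of peaks) and was left aside. Each JunD peak the authors deposited has a score of unstated scale, and its peak names begin with MACS, a peak caller. The values per peak are the authors' and served to rank peaks within a list.

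BACH2 peaks were ranked by −log10 q and JunD peaks by score, with quintile 1 the strongest. Overlap meant at least 1 bp. JunD positions are peak centres, since its list has no summits. Gaps run between peak edges. Tiles were kept where they lay between the first and last peak of a chromosome. No statistical test was run, because each factor had 1 library. Counting of overlaps and gaps was tested on simulated data. Genes, windows and rules were chosen with earlier results of these data known. Every peak in the windows and the nearest on each side outside were named, and comparisons at like fold and of strong JunD peaks were added after the values were seen. Alternatives changed the window, the overlap, the threshold, the joining of peaks and the ranking. The software was Python 3.11.15 with pandas 2.3.3, numpy 2.4.6 and matplotlib 3.10.9.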

Additional observations from a re-analysis of the deposited data

How the results depend on the processing

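Widening each window by 50 kb per side gave 3 BACH2 and 3 JunD peaks at Foxp3, and 5 BACH2 and 4 JunD peaks at Ikzf2. Widening by 100 kb gave 4 and 4 at Foxp3, and 6 and 4 at Ikzf2, while the shared counts stayed at 2. The stronger 50% of each list left 0 BACH2 and 1 JunD peak at Foxp3, 1 BACH2 and 2 JunD peaks at Ikzf2, and 0 shared peaks in either list, because both shared BACH2 peaks rank in the weaker 50%. Joining peaks at most 1 kb apart left 1 JunD region at Foxp3. Requiring summit and centre within 100 bp left 1 shared peak in each list, the one at Ikzf2. Ranked by width, the first JunD peak at Ikzf2 was 647, and it was the unshared one. Of the 38 alternative values, 23 stayed within 1.5 times the reported value and 15 did not. The 23 include some of the counts given above, and BACH2 centre in place of summit, added after the data were seen. No paired analysis was possible because the groups hold a single library each. Unknown depth limits what an unlisted site means.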
